A study of Mus musculus with 3 samples.

Results

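The intervals flanking the Fgf3 and Fgf10 alleles are the stretches of mouse chromosomes 7 and 13 on which the targeted genes lie. Their members were the array probes placed within 10 Mb of the first position of the Fgf3 probe on chromosome 7 or of the Fgf10 probe on chromosome 13, in the build mm7 that the files use. Probes for the targeted genes themselves, for other genes whose names start with Fgf, Ccnd, Itg, Col or Krt, and for Isl1 were left out by rule (5 probes in the Fgf3 interval and 8 in the Fgf10 interval). This gave 357 members among 41174 probes, 248 around Fgf3 and 109 around Fgf10. Of these, 237 were well above background and were tested, 176 of 132 genes in the Fgf3 interval and 61 of 38 genes in the Fgf10 interval. The other 72 and 48 members were not well above background in either channel on all arrays. Position and gene name chose the members, and their ratios did not enter the rule. The rule was set with earlier results of these data known.

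The study profiled otic placodes, the patches of head ectoderm from which the inner ear forms, dissected from mouse embryos with 4 to 8 somites. Each of 3 arrays carried 1 pool of 10 placodes from Fgf3-/-;Fgf10-/- embryos (double null) and 1 pool of 10 from Fgf3+/-;Fgf10+/- embryos (double heterozygote). The controls therefore also carry 1 null allele of each gene and the chromosome stretch around it. Cy3 marked the double heterozygote pool and Cy5 the double null pool throughout, so a dye effect and the genotype cannot be told apart. The labels name no strain for either allele and no breeding scheme, and no embryo treatment was applied. Every ratio below is double null over double heterozygote on the log2 scale, each mean is over 3 arrays with its standard error (SE), and the test is limma with Benjamini-Hochberg adjustment over all 25506 tested probes.

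Fgf3 and Fgf10 encode secreted fibroblast growth factors that act together to induce the otic placode. A gene close to a targeted allele is inherited with it, because recombination seldom separates neighbours. Embryos homozygous for a targeted allele are therefore commonly homozygous for the chromosome stretch around it as well, while heterozygotes carry 1 copy of it. The stretch next to Fgf3 also holds the imprinted cluster of distal chromosome 7, in which genes such as H19 and Igf2 are expressed from only the maternal or only the paternal copy. The stretch next to Fgf10 holds Nnt, a mitochondrial transhydrogenase gene that is deleted in part in the C57BL/6J strain.

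The probes are 60 bases long, and the first 30 bases of those on which the near-gene results turn are shown, since probes of one gene did not always give the same ratio. They are printed as the probe's own strand, with no bases marked. Of 4833420G17Rik, whose probes were both lower, the probe at chr13:116675646-116676266 (plus strand) and the probe at chr13:116695330-116695389 (plus strand) begin as follows, in that order.
4833420G17Rik first probe: gacacactttgttattagcaactaccgaga
4833420G17Rik second probe: agtgtggaattgctacagacccaagacatt
Of Paip1, whose probes had ratios of opposite sign, the probes at chr13:116655192-116657117, chr13:116660124-116661161 and chr13:116667076-116667135 (all plus strand) begin with these bases.
Paip1 first probe: tgggagaactatatcttaacctggagatta
Paip1 second probe: tccatgcaacttcaacatacagagaagcta
Paip1 last probe: accaagattcttcattgaggatttattcca
Of the genes next to Fgf3, the Oraov1 probes at chr7:141344509-141344568 and chr7:141346153-141346212 (plus strand) and the Cttn probes at chr7:140862115-140862174 and chr7:140876274-140877271 (minus strand) begin with these bases.
Oraov1 first probe: aggactttccttacgatgatcccacttatg
Oraov1 second probe: cctagctgtatgtccgaaggatttgtaaat
Cttn first probe: ggttcacactacagagcatctgcgtgtgtt
Cttn second probe: gactataagactggtttcggaggcaaattt
Some placements span more than the probe's 60 bases. Examples are the first 4833420G17Rik probe (621 positions) and the first and second Paip1 probes (1926 and 1038 positions). In all, 21 tested probes of the Fgf3 interval and 13 of the Fgf10 interval had such placements. How these probes divide into genomic blocks was not analysed. Which exon or untranslated region each probe lies in was not analysed here.

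The targeted genes were read first. The Fgf3 probe (chr7:141266006-141267865) had log2 ratios of -0.69, -0.06 and -0.69 on the 3 arrays, a mean of -0.48 ± 0.12 (SE) with limma adjusted p = 0.121. The Fgf10 probe (chr13:115999939-115999998) had 0.31, -0.11 and 0.23, a mean of 0.14 ± 0.09 with limma adjusted p = 0.385. Neither passed the threshold of 0.05. The labels do not say which sequence each null allele lacks, and so a probe outside it would check nothing about the genotypes.

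Few probes in the intervals changed. At an adjusted p under 0.05, 3 of the 237 tested members passed (1.27%), beside 379 of all 25506 tested probes (1.49%). The members that passed were Rplp2 and Glrx3 in the Fgf3 interval, both higher in the double null (2 members, beside 1.20% of all probes called higher), and 4833420G17Rik in the Fgf10 interval, lower in the double null (1 member, beside 0.282% called lower). The rest of chromosome 7 had 26 of 1586 probes called (1.64%), and the rest of chromosome 13 had 13 of 871 (1.49%). At the wider threshold of adjusted p under 0.10, 9 members of the Fgf3 interval and 4 of the Fgf10 interval passed, beside 4.22% of all probes. An unadjusted p under 0.05 was reached by 54 members (22.8%), beside 20.2% of all probes. One sign on all 3 arrays was seen for 99 members (41.8%), beside 43.8% of all probes. By each of these counts the members lay near the background. The signs below are those after loess. With each array centred on its median instead, the median of all tested probes moved up by 0.32, and 35 of the 90 named probes changed sign. With that shift taken off again, 31 of the 90 had the other sign. Because whole tissue was measured, fewer cells of a type and less RNA per cell cannot be told apart for any of these probes.

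Facts of the whole set bear on reading these ratios. Spots well above background numbered 26452 to 28258 per array in Cy3 and 27284 to 29177 in Cy5. Log2 ratios of pairs of arrays correlated across tested probes with r between 0.36 and 0.41, and across the interval probes with r between 0.35 and 0.45, where probes are not independent replicates. Of the otic placode markers 7 of 8 genes were tested (Pax2 was not well above background), and all 12 of their probes had a mean below 0, with a median of -0.41 and 2 probes called lower. Surface ectoderm markers had a median of -0.14, with all 5 means below 0. Hindbrain markers had -0.11, with 4 of 5 means below 0. Endoderm markers had -0.23, with 3 of 4 means below 0 and 1 probe called lower, of Sox17. Mesenchyme and mesoderm markers had 0.14, with 5 of 8 means above 0. Heart and muscle markers had a median of 0.45 over 8 probes, with 2 called higher. Blood markers (Hbb-bh1 and Hba-x, with Hbb-y not well above background) had array medians of 1.43, -0.42 and 2.69. The 3 endothelial marker genes tested had array medians of 1.16, 0.26 and 0.14. The part of these markers' cells in the interval ratios was not tested.

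**Figure D1:**
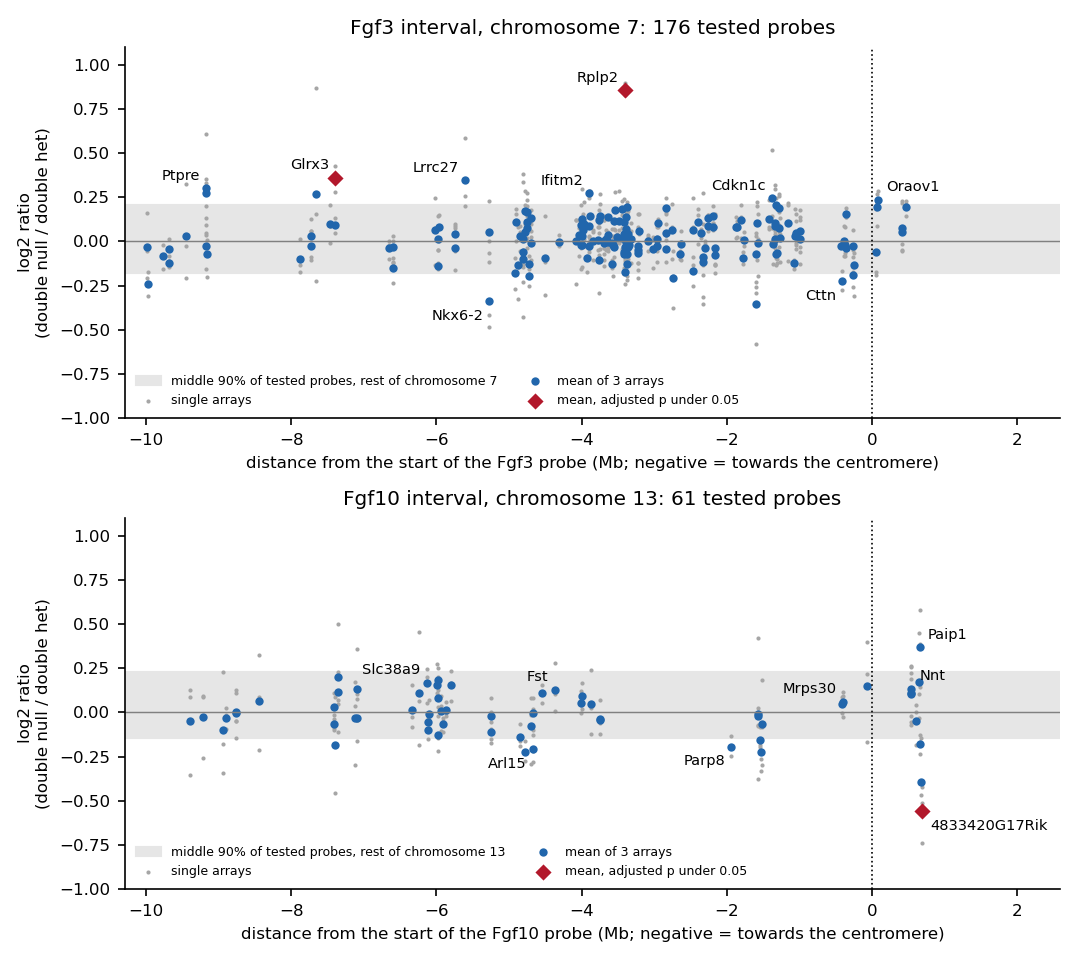
Mean log2 ratio of each tested probe (blue, or red diamonds for adjusted p under 0.05) and its 3 single-array values (grey) against distance in Mb from the Fgf3 probe (top) and the Fgf10 probe (bottom), with the middle 90% of tested probes on the rest of each chromosome shaded. Nearly all members lie on the centromere side, and 18 of 176 and 10 of 61 means fall outside the shaded bands.

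The intervals were almost one-sided. The probe furthest beyond Fgf3 lay 0.471 Mb from it and the one furthest beyond Fgf10 lay 0.695 Mb from it, and these were also the last probes placed on the assembled chromosomes. Thus 170 of the 176 tested probes of the Fgf3 interval and 52 of the 61 of the Fgf10 interval lay on the centromere side. Some listed neighbours were therefore out of reach of the rule. Of the genes looked for as neighbours of Fgf10, Hmgcs1, Ccl28 and Zfp131 are on sequence assigned to no chromosome in mm7, Nim1k is on chromosome 13 sequence without a position, and none is a member. At the outer edge, the first probe inside the Fgf3 window (AK052606, 9.98 Mb away) had a mean of -0.03 and the first outside it (Dock1, 10.1 Mb) -0.03. The first inside the Fgf10 window (9530083O12Rik, 9.40 Mb) had -0.05 and the first outside it (AK087779, 10.4 Mb) -0.35 with limma adjusted p = 0.0406, so this probe passed the threshold and is not a member.

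The size of the ratios was read by distance. Within 1 Mb of Fgf10 the median absolute log2 ratio was 0.14 over 12 probes of 5 genes, and from 1 to 10 Mb it was 0.07 over 49 probes. The rest of chromosome 13 had 0.07. Without the probes of 4833420G17Rik the value within 1 Mb was 0.12 over 10 probes of 4 genes, so fewer than 20 probes and a few genes carry it. Within 1 Mb of Fgf3 the median absolute log2 ratio was 0.06 over 17 probes of 10 genes, from 1 to 10 Mb it was 0.07 over 159 probes, and on the rest of chromosome 7 it was 0.07. By side, the value within 1 Mb was 0.13 over the 6 probes beyond Fgf3 and 0.04 over the 11 on its centromere side. Around Fgf10 it was 0.17 over 9 probes beyond the gene and 0.06 over 3 on the centromere side. Within 1 Mb of Fgf3, 6 of the 17 probes (35.3%) had an unadjusted p under 0.05 by limma. On the rest of chromosome 7 the share was 19.8%. The few probes beyond Fgf10 held the 3 largest absolute ratios of its interval. Differences by side or distance were not tested.

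On the telomere side of Fgf10, 4833420G17Rik was lower in the double null. Its second probe, 0.695 Mb from Fgf10, had normalized log2 intensities of 13.62, 13.38 and 13.69 in the double heterozygote and 13.11, 12.96 and 12.95 in the double null. The 2 genotypes did not overlap, and how many of all tested probes share this was not counted. The looser mark of one sign on all 3 arrays was met by 43.8% of all tested probes. Its log2 ratios were -0.51, -0.42 and -0.74, a mean of -0.56 ± 0.07 (SE, n = 3), which is 67.9% of the heterozygote level, with limma adjusted p = 0.0182. The first probe of this gene, 0.676 Mb from Fgf10, had ratios of -0.47, -0.15 and -0.57, a mean of -0.39 ± 0.08 with limma adjusted p = 0.0862. Both probes were thus below 0 on every array, and 1 of them passed the threshold. Without replicate 3 the second probe had -0.47 with limma adjusted p = 0.0864, and without replicate 2 both probes passed. With each array centred on its median in place of loess, the second probe read 0.02, where the median of all tested probes moved by 0.32, and relative to that shift it read -0.30.

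Paip1, which encodes a partner of the poly(A)-binding protein in translation, lies just before that gene. Its probe at 0.655 Mb had ratios of 0.45, -0.03 and 0.10 (mean 0.17), its probe at 0.660 Mb had 0.58, 0.14 and 0.39 (mean 0.37 ± 0.08, limma adjusted p = 0.0959), and its probe at 0.667 Mb had -0.13, -0.24 and -0.17 (mean -0.18 ± 0.05, limma adjusted p = 0.143). The probes at 0.660 and 0.667 Mb thus each kept one sign on all arrays, and these signs were opposite. No single direction can be given for Paip1, and none of its probes passed the threshold. The range over its 3 probes, 0.55, was the widest of the 50 genes in the intervals with more than 1 tested probe. The next widest was 0.39, for the 4 probes of Gpbp1.

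Nnt, the transhydrogenase gene named above, was represented by 4 probes between 0.545 and 0.603 Mb from Fgf10. At 0.545 Mb, 3 of them had means of 0.13, 0.10 and 0.11, each above 0 on arrays 1 and 3 and below 0 on array 2. The probe at 0.603 Mb had -0.18, 0.04 and 0.0018 on the 3 arrays, a mean of -0.05. In both channels of every array all 4 were above the background mark, so Nnt signal was measured in both genotypes. None of the 4 passed the threshold, with limma adjusted p between 0.346 and 0.703.

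On the centromere side of Fgf10, Mrps30, a mitochondrial ribosomal protein gene 0.404 to 0.411 Mb away, had means of 0.05 and 0.06 with limma adjusted p = 0.615 and 0.561. Between 1 and 2 Mb lay 6 probes of 4 genes, all with means below 0, from -0.22 to -0.01, of which 3 had one sign on all arrays. Means below 0 were found for 11740 of all 25506 tested probes. Parp8, a gene of the ADP-ribosyltransferase family 1.94 Mb away, had ratios of -0.20, -0.13 and -0.25, a mean of -0.19 ± 0.05 with limma adjusted p = 0.127. The 3 probes of Emb, which encodes the cell adhesion protein embigin, had means of -0.01, -0.16 and -0.06. The first of these ran from -0.38 on array 2 to 0.42 on array 3. The neighbouring A430106F12Rik had a mean of -0.22 with limma adjusted p = 0.144. None of the 6 probes passed.

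Of the genes listed as next to Fgf10, 5 of 10 were tested, with 13 probes, 0 called, 7 means above 0 and 6 below, and a median of 0.05. This list does not hold 4833420G17Rik, the called gene of the interval. By limma 4 of the 13 had an unadjusted p under 0.05, beside 20.2% of all probes. The list of genes further out, between 3.74 and 7.10 Mb, had 11 of 15 genes tested with 19 probes and 0 called. An unadjusted p under 0.05 by limma was reached by 3 of the 19, against the same 20.2%. Of the means 9 were above 0 and 10 below, with a median near 0. Arl15, a small GTPase gene 4.67 Mb away, had the lowest mean of that list, -0.21 ± 0.05, with ratios of -0.28, -0.13 and -0.22 and limma adjusted p = 0.120, while its other probe had a mean near 0. Fst, which encodes the activin antagonist follistatin, had ratios of 0.28, 0.0083 and 0.10, a mean of 0.13 with limma adjusted p = 0.316. Ndufs4, a subunit of respiratory complex I, had a mean of 0.11, Il6st, the shared receptor of the interleukin 6 family, 0.02, and the kinase gene Map3k1 -0.03. Among probes of one sign on all arrays, the largest positive means of named genes here were 0.17 for 1 of 4 probes of the amino acid transporter gene Slc38a9, 0.15 for the lipid phosphatase gene Plpp1 and 0.15 for Gpx8, a glutathione peroxidase family gene. Each had a limma adjusted p of at least 0.187.

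**Figure D2:**
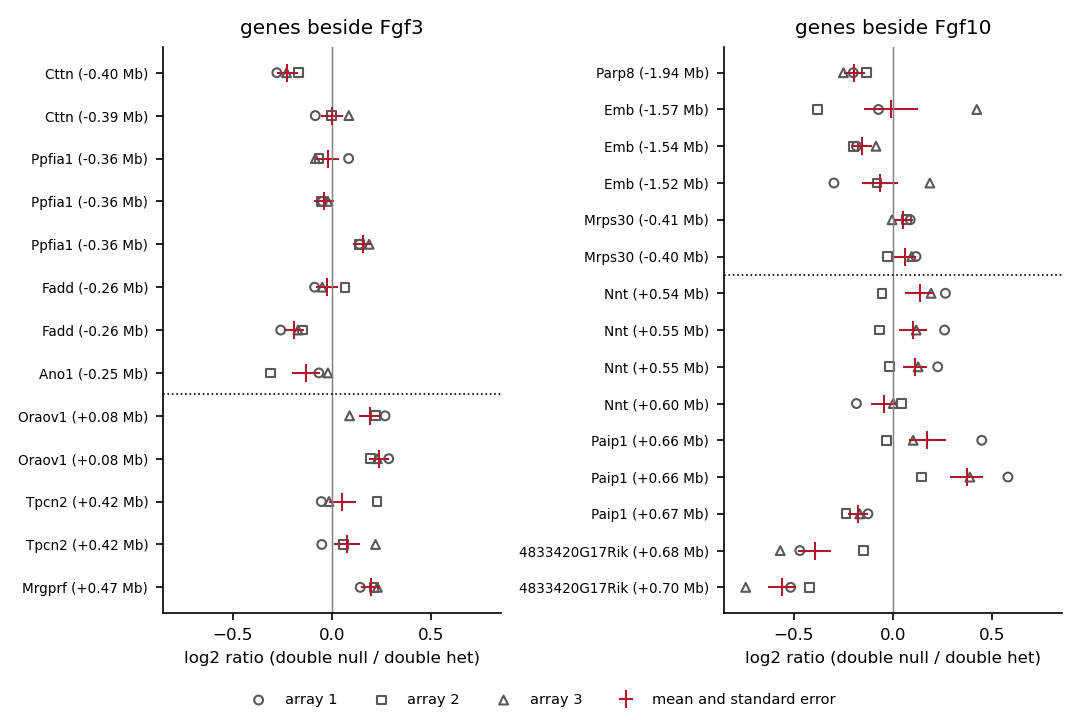
Log2 ratio on each array (open symbols), with the mean and its standard error (red), for probes of listed genes and of 4833420G17Rik beside Fgf3 (left) and Fgf10 (right), ordered along the chromosome, with the dotted line at the targeted gene. Both Oraov1 probes lie right of 0 on every array, both 4833420G17Rik probes lie left of 0 on every array, and the Paip1 probes fall on both sides.

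Next to Fgf3, 8 of 10 listed genes were tested, with 15 probes and 0 called. By limma 6 of the 15 had an unadjusted p under 0.05, beside 20.2% of all probes. Of the 15 means 9 were above 0 and 6 below, with a median of 0.03. The nearest named gene tested beyond Fgf3 was Fgf15 (0.060 Mb), which the rule left out of the members by name. Oraov1, whose yeast counterpart serves the assembly of a ribosome recycling factor, was the nearest named member tested. It lay 0.079 and 0.080 Mb beyond Fgf3. Its second probe had normalized log2 intensities of 11.18, 11.33 and 11.41 in the double heterozygote and 11.46, 11.52 and 11.63 in the double null. These did not overlap between genotypes, again without a count over all tested probes, of which 43.8% had one sign on all 3 arrays. The ratios were 0.29, 0.19 and 0.23, a mean of 0.24 ± 0.05 with limma adjusted p = 0.0856. Its first probe had 0.27, 0.22 and 0.09, a mean of 0.19 ± 0.06 with limma adjusted p = 0.145. Both Oraov1 probes were above 0 on all 3 arrays, and neither passed the threshold. Over the 19 or 20 alternative settings that gave a value, the means of the first probe stayed between 0.15 and 0.47 and those of the second between 0.21 and 0.69, the upper values coming with median centring.

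Beyond Oraov1, the lysosomal channel gene Tpcn2 (0.416 and 0.417 Mb) had means of 0.05 and 0.08. Mrgprf, a gene of the Mas-related receptor family at 0.471 Mb and the last probe on the chromosome, had ratios of 0.14, 0.21 and 0.23, a mean of 0.19 ± 0.05 with limma adjusted p = 0.120. Of the 6 tested members beyond Fgf3, 5 had a mean above 0, and 3 were above 0 on all arrays. Of all 25506 tested probes 13766 had a mean above 0. Fgf15, left out of the members by name, was below 0 on every array. Its mean was -0.20 ± 0.06 with limma adjusted p = 0.161. Relative to the shift of median centring, Tpcn2 read -0.54 and -0.05 and Mrgprf -0.34, while Oraov1 kept 0.15 and 0.37. The first Tpcn2 probe and Mrgprf had mean log2 intensities of 6.77 and 6.90, beside a median of 9.66 over all tested probes.

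On the centromere side of Fgf3, Cttn, which encodes the actin-binding protein cortactin, had a probe at 0.404 Mb with ratios of -0.28, -0.17 and -0.23, a mean of -0.22 ± 0.05 with limma adjusted p = 0.0958. Its other probe, at 0.390 Mb, had a low of -0.08, a high of 0.08 and a mean near 0. The difference seen by the first probe was therefore not shared by the other. Fadd, the adaptor of death receptors, likewise had 1 probe at -0.19 ± 0.05 (ratios of -0.26, -0.15 and -0.17, limma adjusted p = 0.128) and 1 at -0.02. The 3 probes of Ppfia1, a liprin gene, had means of -0.02, -0.04 and 0.15. The chloride channel gene Ano1 had a mean of -0.13 with limma adjusted p = 0.335, and both probes of Nadsyn1, an enzyme of NAD synthesis, had means of 0.04 and 0.03. No probe on this side within 1 Mb passed the threshold.

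The imprinted cluster and the genes within and beside it lay between 0.990 and 2.26 Mb from Fgf3 on the centromere side. Of its 19 listed genes 14 were tested with 25 probes, and 0 were called. By limma 5 of the 25 had an unadjusted p under 0.05, beside 20.2% of all probes. Th, Tspan32, Trpm5, Tnfrsf22 and Tnfrsf23 were not well above background. The 25 means ran from -0.09 to 0.24 with a median of 0.08, beside a median of 0.01 over all tested probes. Of the 25 means 19 were above 0, beside 13766 of all 25506 tested probes. The array medians of the list were 0.02, 0.09 and 0.08.

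Igf2, the paternally expressed growth factor gene, had ratios of 0.06, 0.10 and 0.08 at 1 probe and 0.11, 0.14 and 0.20 at the other (means of 0.08 and 0.15, limma adjusted p = 0.382 and 0.185). H19, the maternally expressed RNA beside it, had means of 0.13 and 0.09 with limma adjusted p = 0.211 and 0.370. The 4 probes of this pair were above 0 on every array, and none passed. The first Igf2 probe had a mean log2 intensity of 15.4, and all tested probes over 15 had a median log2 ratio of 0.18. Cdkn1c, a maternally expressed inhibitor of the cell cycle, had the highest mean of the list, 0.24 ± 0.09, from ratios of 0.52, 0.14 and 0.07, with limma adjusted p = 0.206, so array 1 carried most of it. Phlda2, a maternally expressed regulator of placental growth, had means of 0.09 and 0.10. Both came from array 2, where its probes read 0.29 and 0.32, while the other arrays lay between -0.04 and 0.01. Kcnq1 had means of 0.11 and 0.13, and the antisense RNA Kcnq1ot1, which is not on the list, had -0.01.

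Nap1l4 illustrates how probes of one gene differed. It encodes a histone chaperone, and its brightest probe had ratios of 0.24, 0.19 and 0.19 (mean 0.21 ± 0.05, limma adjusted p = 0.102). Its other probes had means of -0.07 and -0.06. The brightest probe had a mean log2 intensity of 15.6, and all tested probes over 15 had a median log2 ratio of 0.18. Cars, a cysteinyl-tRNA synthetase gene, had means of 0.19, 0.08 and 0.02. Cd81, a tetraspanin gene, had ratios of -0.06, -0.13 and -0.09, and the insulin gene Ins2 had means of -0.08 and -0.04. The list of genes between Ctsd and H19 holds the skeletal muscle troponin genes Tnnt3 and Tnni2 with Lsp1, a leukocyte protein gene, and Mrpl23, a mitochondrial ribosomal protein gene. None of its 5 probes was called, and by limma 0 had an unadjusted p under 0.05. The troponin genes Tnnt3 (-0.12 and -0.09) and Tnni2 (0.11) lay on both sides of 0, Lsp1 had 0.05 and Mrpl23 -0.03, beside the median of 0.45 for the heart and muscle markers elsewhere in the genome.

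**Figure D3:**
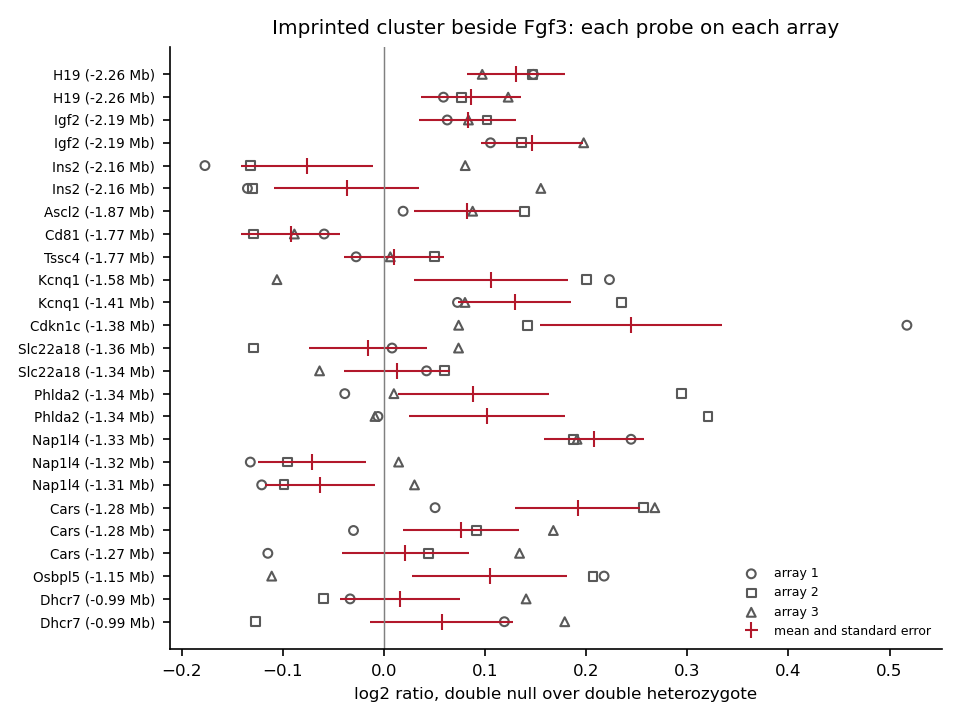
Log2 ratio on each of the 3 arrays (open symbols) with the mean and standard error (red) for the 25 tested probes of the imprinted cluster, ordered by position and labelled with the distance in Mb from Fgf3. The 4 probes of H19 and Igf2 lie right of 0 on every array, and Cdkn1c and Phlda2 rest on a single high array each.

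The called genes of the Fgf3 interval lay further away. Rplp2, a ribosomal stalk protein gene at chr7:137868545-137868604 and 3.40 Mb from Fgf3, had normalized log2 intensities of 17.05, 17.11 and 17.05 in the double heterozygote and 17.89, 18.01 and 17.88 in the double null. Its ratios were 0.84, 0.90 and 0.83, a mean of 0.85 ± 0.05 with limma adjusted p = 0.00302. Glrx3, a monothiol glutaredoxin gene at chr7:133872838-133872897 and 7.39 Mb away, had 15.50, 15.52 and 15.55 in the double heterozygote and 15.92, 15.90 and 15.83 in the double null. Its ratios were 0.42, 0.38 and 0.28, a mean of 0.36 ± 0.05 with limma adjusted p = 0.0328. For both probes, named because they were called, the genotypes did not overlap. The share of all tested probes without overlap was not counted, and 43.8% of them had one sign on all 3 arrays. A second Glrx3 probe, placed directly after the first, had 0.09, 0.13 and 0.05, a mean of 0.09 with limma adjusted p = 0.356.

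Both called probes were among the brightest. Across the genome 223 of the 757 tested probes with a mean log2 intensity over 15 were called (29.5%), of which 220 were higher in the double null. Of the 24749 probes up to 15, 156 were called (0.630%). The intervals held 9 probes over 15, and 2 of them were called, Rplp2 and Glrx3, while 1 of the 228 probes up to 15 was called, 4833420G17Rik. With the fit and adjustment confined to probes up to 15, this 4833420G17Rik probe was not called (limma adjusted p = 0.0794). With an intensity trend in the prior it was not called either (limma adjusted p = 0.122). With loess of span 0.1 on probes above background, Rplp2 fell to 0.23 (limma adjusted p = 0.118) and Glrx3 to 0.16 (limma adjusted p = 0.204), and with the scanner's processed signals they had 0.32 and 0.18 (limma adjusted p = 0.207 and 0.261). The Rplp2 and Glrx3 ratios were thus smaller under both settings, which change several steps at once, and the second 4833420G17Rik probe kept -0.53 and -0.54 under the same settings, with limma adjusted p = 0.0721 and 0.207. Glrx3 also lost its call when any 1 array was left out (limma adjusted p from 0.0889 to 0.116), and Rplp2 kept it each time.

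**Figure D4:**
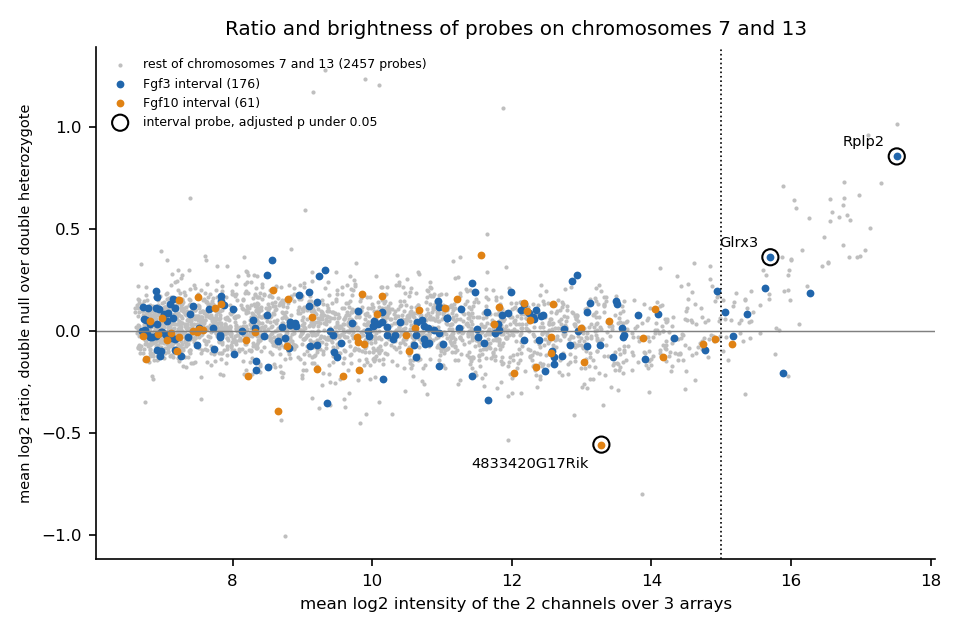
Mean log2 ratio against mean log2 intensity for tested probes of the Fgf3 interval (blue), the Fgf10 interval (orange) and the rest of chromosomes 7 and 13 (grey), with called interval probes circled and a dotted line at 15. Rplp2 and Glrx3 sit in the upward bend of the brightest probes, and 4833420G17Rik lies below the other probes of like brightness.

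Other members of the Fgf3 interval with large ratios did not pass. Nkx6-2, a homeobox gene of the neural tube 5.27 Mb away, had ratios of -0.48, -0.12 and -0.42, a mean of -0.34 ± 0.08 with limma adjusted p = 0.0998, and without replicate 2 its mean was -0.45 with limma adjusted p = 0.0491. Lrrc27 (5.61 Mb) had 0.20, 0.58 and 0.26, a mean of 0.35 with limma adjusted p = 0.102. Ifitm2 (3.89 Mb), of the interferon-induced transmembrane proteins, had the steadiest of these ratios, 0.26, 0.29 and 0.27, with a mean of 0.27 ± 0.05 and limma adjusted p = 0.0556. The lowest mean of the interval was that of the clone AK042559 (1.59 Mb, beside Kcnq1), with ratios of -0.26, -0.23 and -0.58, a mean of -0.36 ± 0.08 and limma adjusted p = 0.0899. The paralogs of Ifitm2, Ifitm1 and Ifitm3, whose sequences are alike enough that probes may share signal, had means of 0.15 and 0.0033.

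At the far end, both probes of the receptor phosphatase gene Ptpre (9.18 Mb) had means of 0.30 and 0.27 and were above 0 on every array, with limma adjusted p = 0.179 and 0.0948. Dock1, a Rac activator gene (9.98 and 9.69 Mb), had means of -0.24, -0.05 and -0.12, the first with limma adjusted p = 0.0898. Both probes of the polyamine oxidase gene Paox (4.72 Mb) were below 0 on every array, with means of -0.20 and -0.13. Thus Ptpre and Paox were each read the same way by both of their probes, and none of these 4 probes passed.

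Each interval as a whole was set against the rest of its chromosome, array by array. In the Fgf3 interval the median log2 ratio was -0.01, 0.03 and 0.04 on the 3 arrays, beside 0.01, 0.01 and 0.02 on the rest of chromosome 7. The differences were -0.02, 0.02 and 0.02, a mean of 0.0050 ± 0.022 (SD, n = 3), and an exact two-sided sign-flip permutation test gave p = 1. In the Fgf10 interval the median was 0.07, -0.03 and -0.0045, beside 0.03, 0.03 and 0.02 on the rest of chromosome 13. The differences were 0.05, -0.05 and -0.02, a mean of -0.0092 ± 0.050 (SD, n = 3), with p = 0.75 in the same exact test. The differences changed sign between arrays in both intervals. With 3 arrays the smallest p this test can give is 0.25, so it cannot reach 0.05.

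The spread of ratios was compared in the same way. The median absolute log2 ratio of the Fgf3 interval exceeded that of the rest of chromosome 7 by 0.02 on array 1 and 0.0076 on array 2 and was 0.0038 smaller on array 3 (exact p = 0.5). In the Fgf10 interval it exceeded the rest of chromosome 13 by 0.02 on arrays 1 and 3 and was 0.0047 smaller on array 2 (exact p = 0.5). Taken on the means of 3 arrays, it was 0.10 in the Fgf10 interval and 0.07 on the rest of chromosome 13, and 0.07 in both the Fgf3 interval and the rest of chromosome 7.

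Agreement among probes of one gene gives a further view of how far single ratios can be read. In the Fgf3 interval 35 genes had more than 1 tested probe, and in 23 of them (65.7%) all means had the same sign. In the Fgf10 interval 15 genes did, and 8 of them (53.3%) agreed in sign. Over all genes with a symbol the share was 49.5% of 5870. Genes whose probes all had the same one sign on all arrays numbered 10 in the Fgf3 interval (28.6%) and 2 in the Fgf10 interval (13.3%, 4833420G17Rik and Plpp1), beside 11.8% overall. These shares are descriptions, since probes of one gene share their RNA and their arrays.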

How the data were processed

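Per the labels, 3 arrays each compared 1 pool of 10 double null placodes (Cy5) with 1 pool of 10 double heterozygote placodes (Cy3). Spot values come from Agilent Feature Extraction 9.5.1.1, per the submitters' processing notes. For each channel the authors deposited the mean and local background intensity and, with background and dye corrections per the file headers, a processed intensity. Their deposited scanner files add the log10 ratio of Cy5 over Cy3 and marks for background and outliers. Ratios on the log2 scale fill the series table that the authors deposited, and they equalled the scanner's ratios on the log2 scale within 2.01e-06, with column medians from -0.012 to -0.0031.

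Here the mean intensity was background-corrected by normexp (offset 50) and normalized by loess (span 0.3, controls and outlier spots at weight 0) in limma 3.58.1 under R 4.3.3. Spots of a probe were averaged. Probes tested were those marked well above background on all 3 arrays in at least 1 of the channels, the same channel each time. The test was lmFit and eBayes on the ratio against 0, with Benjamini-Hochberg adjustment over 25506 probes and a threshold of 0.05. The ratio within an array pairs the pools that share a replicate number. The fit was also run on simulated ratios with known changes and no dye effect, whose spread was taken from the fit to these data. Arrays have no read depth, and their number limits the precision. The p-values rest on the spread of 3 array ratios, each of 1 pair of pools, moderated by the spread over all tested probes. Differences between pools and differences of labelling or array are not separated in that spread.

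Positions are those of the files (mm7). Names came from RefSeq records of GRCm38.p6 where they matched (22951 probes by accession, 6659 by symbol, 3109 by synonym), and 8455 probes kept the name in the files. Named genes were the 5 probes with a symbol nearest on each side of each allele, called members, the 5 largest rises and falls of one sign per interval, and the listed genes. Kcnq1ot1, Gpbp1, AK042559, Ifitm1, Ifitm3, Fgf15 and the probes at the window's edge were added after their values were seen. The members and lists were chosen with earlier results of these data known.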

Additional observations from a re-analysis of the deposited data

How the results depend on the processing

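The 3 arrays and the shared dye orientation limit every value, and fluorescence over background limits the 120 members that were not tested. Counts of calls moved with the processing more than the interval medians did, and the cause was not tested. Calls over all probes, in the Fgf3 interval and in the Fgf10 interval were 199, 1 and 0 with a normexp offset of 16, 233, 1 and 1 with loess of span 0.3 on probes above background, 11, 0 and 0 with loess of span 0.1 on them, 21, 0 and 0 with probes of mean log2 intensity up to 15, and 179, 1 and 0 with an intensity trend in the prior. The scanner's processed signals and the series table each gave 0, 0 and 0 by limma, where an unadjusted p under 0.05 was reached by 4417, 34 and 11 and by 4469, 34 and 11 probes. Where only an interval had 0 calls, that count was 34 and 14 with span 0.1, 35 and 14 up to 15, and 14 in the Fgf10 interval with the offset of 16 or the trend. Median centring gave 19476, 142 and 42 calls, of which 17196, 124 and 38 were higher in the double null. It moved the Fgf3 median difference to 0.038, and turned the second 4833420G17Rik probe to 0.020. At adjusted p under 0.10 the counts were 1077, 9 and 4. Within 5 Mb of Fgf3 there was 1 call, and within 2 Mb there were 0 (11 with an unadjusted p under 0.05). With the channels fitted separately and no replicate block, 185 probes were called in all, and 2 and 1 in the intervals. Leaving out each replicate in turn gave 82 to 309 calls over all probes, 1 to 2 in the Fgf3 interval and 0 to 2 in the Fgf10 interval. The median differences then ran from -0.0014 to 0.018 around Fgf3 and from -0.037 to 0.012 around Fgf10, so their signs were not settled. Aquantile after loess, 3 other filters on dim probes, kept outlier spots, no background subtraction, the brightest probe per gene and the left-out names kept in left the calls of both intervals within 1.5 times. Of 90 named probes, 35 changed sign under median centring and at most 11 under any other setting.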
